A study of Mus musculus with 3 samples.

Results

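The 32 genes described here are immediate early genes and close relatives, taken by symbol from the 27998 genes that each of the 3 matrices lists, and all 32 were found. Their raw UMIs (unique molecular identifiers, 1 per captured mRNA molecule) were read in every cell beside the cell's mitochondrial share, the percent of its UMIs from genes with the prefix mt-. The cells came from the subventricular zone (SVZ), the layer of the lateral ventricle wall that makes new neurons, of adult mice (5 mice per the labels). All mice carried Rosa26-tdTomato with aSMACreERt2, in which the Acta2 (smooth muscle actin) promoter drives a Cre that tamoxifen activates, crossed to a Sox2-GFP line (B6;129S-Sox2tm2Hoch/J), with a strain background given as C57/Bl6(3/4) crossed to 129S1SvlmJ(1/4). The Acta2 promoter is active in ependymal cells of this wall and in vascular mural cells, so the reporter does not mark 1 cell type. Papain at 37 °C freed the cells, which were then sorted by fluorescence and captured with 10x Chromium 3′ v2 chemistry. There was 1 library of tdTomato-positive, GFP-positive cells (1200 sorted) and there were 2 libraries of tdTomato-negative, GFP-positive cells (replicate 1 with 1200 sorted, replicate 2 with 6000). All 3 groups of cells thus shared the genotype, the enzyme step and the GFP gate. No label ties a library to particular animals, and p-values therefore measure the spread among 3 samples, part or all of which may be technical. The time from dissection to capture is not given in the sources used here.

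Immediate early genes are transcribed within minutes of a stimulus without new protein synthesis. Growth factor and stress signals reach them through MAP kinases, which act on serum response factor with its partners at CArG boxes and on CREB and ATF factors at cyclic AMP response elements (CRE). The products include the FOS, JUN and ATF3 subunits of AP-1 dimers, the zinc finger factors of the EGR and Krüppel-like families, and proteins that shut the response off, such as the phosphatase DUSP1 and the mRNA decay factor ZFP36. In brain, FOS and EGR1 are used as markers of recent activity, and enzymatic dissociation of tissue is known to induce many of these genes in microglia and other cells.

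The promoters of Fos, Dusp1, Btg2 and Zfp36 are shown because Fos, Btg2 and Dusp1 or Zfp36 recur in the comparisons below and because these windows hold the signal-response letters just named. Of the 32 genes, 28 matched an entry of the RefSeq promoter table (build GRCm38.p6). Each line gives the 250 bases before the transcription start, 5′ to 3′ on the gene's strand. Capitals mark a CRE (TGACGTCA), its core (TGACG, either strand), a TATA element (TATAA, gene strand) or a CArG box (by its name alone). The windows are chr12:85473640-85473889 (plus strand) for Fos, chr17:26508473-26508722 (minus strand) for Dusp1, chr1:134079156-134079405 (minus strand) for Btg2 and chr7:28379229-28379478 (minus strand) for Zfp36.
Fos: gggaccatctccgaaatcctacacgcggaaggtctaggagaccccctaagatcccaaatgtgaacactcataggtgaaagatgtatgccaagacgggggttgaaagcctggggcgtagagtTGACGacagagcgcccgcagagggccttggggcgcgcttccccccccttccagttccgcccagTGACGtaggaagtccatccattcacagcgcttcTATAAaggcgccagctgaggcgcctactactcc
Dusp1: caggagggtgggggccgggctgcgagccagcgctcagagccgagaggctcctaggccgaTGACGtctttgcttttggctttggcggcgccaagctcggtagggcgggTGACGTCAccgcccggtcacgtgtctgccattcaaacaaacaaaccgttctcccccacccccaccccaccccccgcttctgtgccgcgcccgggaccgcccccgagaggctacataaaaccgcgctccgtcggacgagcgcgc
Btg2: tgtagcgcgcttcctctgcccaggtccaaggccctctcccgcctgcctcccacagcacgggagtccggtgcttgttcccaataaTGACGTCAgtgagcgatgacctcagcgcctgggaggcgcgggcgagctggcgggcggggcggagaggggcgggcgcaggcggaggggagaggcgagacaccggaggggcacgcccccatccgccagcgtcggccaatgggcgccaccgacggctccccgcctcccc
Zfp36: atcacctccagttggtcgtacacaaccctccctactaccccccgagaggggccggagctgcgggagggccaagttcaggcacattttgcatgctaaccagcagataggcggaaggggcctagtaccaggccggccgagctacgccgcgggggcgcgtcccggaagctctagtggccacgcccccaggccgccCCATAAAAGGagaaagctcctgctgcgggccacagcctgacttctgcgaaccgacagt
Fos held the CRE core at 129 and 66 bases before its start and a TATA element at 33. Dusp1 held a full CRE at 143 bases and the core at 191, Btg2 a full CRE at 166, and Zfp36 a CArG box at 58. A full CRE was found in 2 of the 28 genes (Dusp1, Btg2), 7.14%, against 1.77% of 27025 genes with a promoter of the same length. The core TGACG, which a full CRE also contains, was found in 13 of 28, 46.4%, against 19.8%. A CArG box was in 2 (Egr2, Zfp36), 7.14% against 1.62%. The EGR motif GCGNGGGCG (both strands) was in 9, 32.1% against 5.33%, and TATAA in 11, 39.3% against 18.4%. The AP-1 motif TGANTCA (both strands) was in 2 (Klf9, Zfp36l1), 7.14% against 7.82%. Windows of the 28 genes therefore held 5 of the 6 motifs at a larger share than all windows did, as a description of letters only.

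After filtering, the tdTomato-positive library held 252 cells and 720340 UMIs, negative replicate 1 held 256 cells and 926246 UMIs, and negative replicate 2 held 1121 cells and 3585917 UMIs. The median mitochondrial share was 8.27%, 3.22% and 3.38%. Clusters were built without the 32 genes, and their makeup differed by gate. Ependymal-like cells were 70.2% of the tdTomato-positive cells and 4.69% and 4.01% of the negative ones. Neuroblast-like cells numbered 1, 42 and 305, and the tdTomato-positive library alone held mural-like (8), microglia-like (14) and endothelial-like (20) cells. The ependymal-like class carried its markers at like levels in all libraries (12 markers summed to 15500, 14860 and 16758 CPM, UMI counts scaled to the total of the cells summed). These markers also entered the clustering and named the class, so their levels cannot test whether its cells match across gates. Shared cell barcodes numbered 1 between the tdTomato-positive library and negative replicate 2, 2 between the negative replicates and 0 between the tdTomato-positive library and negative replicate 1.

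Over all kept cells, 15 of 28 tested immediate early genes were higher in the tdTomato-positive library than in the negative ones and 3 were lower. In the same fit, 22.9% of 10944 genes were called higher and 19% lower (41.8% in either direction), so the count stands against a wide difference between the gates. The median log2 fold change of the 28 was 1.07, against -0.07 over all genes tested, and 23 of 28 were positive. Those higher were in AP-1 (4 of 6 tested), the Krüppel-like factors (2 of 5), the feedback regulators (4 of 4), the mRNA decay group (2 of 4) and the mixed group of matrix, growth arrest and GTPase genes (3 of 5). Fosl2, Egr2, Egr3 and Nr4a1 were too low to test. Levels below are CPM over the library's kept cells, printed in the order tdTomato-positive, negative replicate 1, negative replicate 2, and log2 fold changes carry their SE from edgeR's quasi-likelihood test with Benjamini-Hochberg adjustment (1 library against 2). The tdTomato-positive gate had no replicate, and its library was taken to vary like the others.

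**Figure D1:**
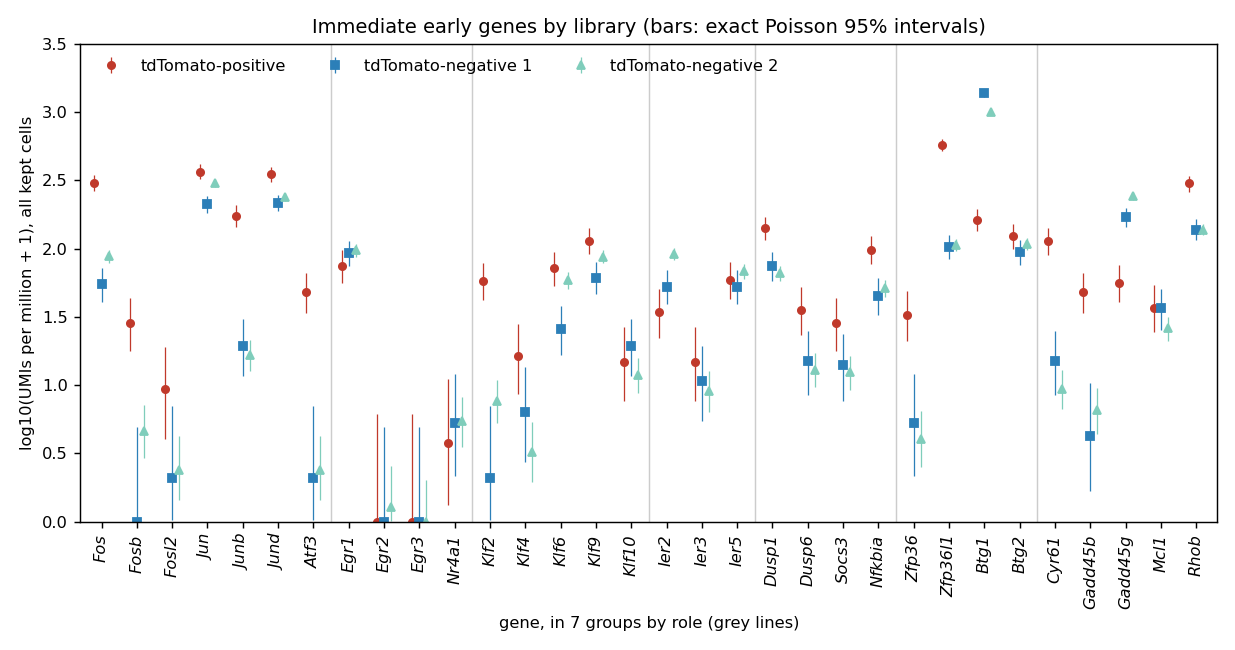
Level of each of the 32 genes in each library, as log10 of CPM plus 1 on the vertical axis, with genes in 7 role groups along the horizontal axis and exact Poisson 95% intervals as bars. Junb, Atf3, Cyr61 and Gadd45b stand apart upward in the tdTomato-positive library, and Btg1 and Gadd45g downward.

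Among AP-1 subunits, Fos stood at 304, 54.0 and 87.3 CPM. It rose by 2.09 ± 0.30 on the log2 scale (adjusted p = 3.8e-11), and the tdTomato-positive library lay above both others. Fosb, a FOS paralog, stood at 27.8, 0 and 3.62, which rest on 20, 0 and 13 UMIs, and rose by 3.36 ± 0.75. Junb, a JUN family member that can oppose JUN, stood at 174, 18.4 and 15.6 and rose by 3.42 ± 0.33. Atf3, a stress-induced partner of JUN, stood at 47.2, 1.08 and 1.39 and rose by 5.10 ± 0.68, on 34 UMIs against 1 and 5. In these 4 the tdTomato-positive library lay above both negative ones, as in 22 of the 28 tested genes and 41.4% of all 10944. Jun, the main JUN subunit, stood at 366, 212 and 302 (log2 fold change 0.54, adjusted p = 0.155), with negative replicate 2 nearer to the tdTomato-positive library than to its own replicate. Jund, which most cells make without a stimulus, stood at 349.8, 216 and 240.1 (0.66, adjusted p = 0.0744). Fosl2 gave 6, 1 and 5 UMIs.

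No EGR factor was called. Egr1 stood at 73.6, 91.8 and 96.5 (log2 fold change -0.31, adjusted p = 0.474), lowest in the tdTomato-positive library. Egr2 gave 1 UMI in all, and Egr3 gave 0 in each library, which allows up to 4.16, 3.24 and 0.837 CPM (3 counts). Nr4a1, a nuclear receptor of the same early response, gave 2, 4 and 16 UMIs. Of the Krüppel-like factors, Klf2, a flow-responsive endothelial regulator, stood at 56.9, 1.08 and 6.69 and rose by 3.45 ± 0.48. Klf4 stood at 15.3, 5.40 and 2.23 and rose by 2.30 ± 0.92 (adjusted p = 0.0324), on 11 UMIs in the tdTomato-positive library. Klf6, Klf9 and Klf10 were not called, with log2 fold changes from 0.10 to 0.68. Ier2, an early nuclear protein, stood at 33.3, 51.8 and 90.6 and fell by 1.13 ± 0.39 (adjusted p = 0.0115), while Ier3 and Ier5 were not called (0.72 and -0.03).

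All 4 feedback regulators rose. Dusp1 stood at 140.2, 73.4 and 65.3 (log2 fold change 1.08 ± 0.31, adjusted p = 0.0022). Dusp6, a cytoplasmic ERK phosphatase, stood at 34.7, 14.0 and 11.99 (1.48 ± 0.47). Socs3, which blocks cytokine receptor signalling, stood at 27.8, 13.0 and 11.4 (1.25 ± 0.52, adjusted p = 0.0393). Nfkbia, the inhibitor of NF-κB, stood at 97.2, 44.3 and 50.2 (1.06 ± 0.33). These 4 are among the 22 whose level was above both negative libraries (41.4% of all genes tested).

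Zfp36 and Zfp36l1 encode proteins that bind AU-rich mRNA and speed its decay. Zfp36 stood at 31.9, 4.32 and 3.07 and rose by 3.23 ± 0.67, and Zfp36l1 stood at 573, 103 and 106 and rose by 2.50 ± 0.31. The antiproliferative Btg1 went the other way, at 161, 1377 and 1005, and fell by 2.81 ± 0.38. Btg2, its paralog and a p53 target, was not called (124, 93.9 and 107). Cyr61, a secreted matrix protein and YAP target, stood at 112, 14.0 and 8.37 and rose by 3.51 ± 0.37. Gadd45b, a stress and growth arrest gene, stood at 47.2, 3.24 and 5.58 and rose by 3.25 ± 0.52, while its paralog Gadd45g stood at 55.5, 168 and 242 and fell by 1.86 ± 0.37. Rhob, an inducible GTPase, stood at 299.9, 137 and 137 and rose by 1.18 ± 0.30. Mcl1, a survival factor, was not called (0.36).

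The sum over all cells moves with the makeup of the library as well as with the level per cell. Ependymal-like cells held 81.7% of the tdTomato-positive UMIs and gave 96.3% of the Cyr61, 94.1% of the Gadd45b, 90.0% of the Fosb, 89.8% of the Zfp36l1 and 84.0% of the Fos UMIs there. Microglia-like cells held 3.63% of the UMIs and gave 70.8% of the Ier2, 65.2% of the Zfp36, 52.0% of the Dusp6, 50.0% of the Socs3, 47.1% of the Atf3 and 45.6% of the Junb UMIs. Endothelial-like cells held 4.76% and gave 80.0% of the Ier3, 41.5% of the Klf2, 36.4% of the Klf4 and 28.6% of the Nfkbia UMIs. Several of the calls above thus rest in part on few cells of vascular or immune classes. Without the 14 microglia-like cells, a setting chosen after seeing the data, 11 of 28 were higher and 3 lower. Atf3 (4.26) and Junb (2.61) were still called, and Ier2 was at -2.83. Not called without them were Zfp36 (1.77), Dusp6 (0.50), Socs3 (0.32) and Klf4 (2.23). Without all vascular and immune cells, 11 of 25 tested were higher and 3 lower, and Jund was among those called. Nfkbia (0.34) and Socs3 (0.13) were then not called. The share of all genes called was not computed without these cells, so the counts have no background beside them. The Ier2 call was also lost with stricter cell filters (-0.75) and after thinning (-0.50). Without negative replicate 2, Ier2 was at -0.49, Klf4 at 1.62 and Klf2 at 5.67, values with no test. DESeq2 called 9 higher (Fos, Junb, Atf3, Klf2, Zfp36, Zfp36l1, Cyr61, Gadd45b and Rhob) and 2 lower (Btg1 and Gadd45g). It called 1908 genes in all, against 4577 with edgeR.

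Within ependymal-like cells, Fos alone of 16 tested immediate early genes was higher in the tdTomato-positive library and none was lower. The background there was 0.171% of 4098 genes higher and 0.122% lower (0.293% in either direction). Fos stood at 313, 178 and 92.0 CPM within the class, on 184, 8 and 16 UMIs from 177, 12 and 45 cells. Its level was highest in the tdTomato-positive cells, and the negative replicates differed from each other. The log2 fold change was 1.55 ± 0.38 (adjusted p = 0.0232, edgeR). DESeq2 called none of the 16, but it called 0 genes in all, against 12 in all with edgeR. None of the 16 had an unadjusted p under 0.05 in DESeq2, whereas edgeR had 4 such genes (Btg2, Jun, Fos and Egr1). The call was also lost without the count filter (adjusted p = 0.389) and with clusters built from the other set of genes (1.17, adjusted p = 0.180). Without negative replicate 2 the log2 fold change was 0.96 and without negative replicate 1 it was 1.78, values with no test.

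Few cells carried the Fos transcripts. A Fos UMI was found in 46 of 177 tdTomato-positive ependymal-like cells (26.0%), in 3 of 12 cells (25%) of negative replicate 1 and in 5 of 45 (11.1%) of replicate 2, at median depths of 3284, 4069 and 4304 UMIs. After thinning each cell to 1000 UMIs the shares were 17.5%, 18.2% and 4.44%. In the same tdTomato-positive library, 0 of 20 endothelial-like cells had one, at a median depth of 1072 UMIs. The 5 richest cells held 67 of the 184 UMIs, 36.4%, and in negative replicate 2 a single cell held 10 of the 16. The class level of Fos is thus set by a minority of cells in each library.

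The other 15 tested genes of the ependymal-like class were not called, each with an adjusted p near 1. Zfp36l1, 1 of the most separated genes over all cells, stood at 631, 712 and 609.8 CPM within the class (log2 fold change 0.07). Junb stood at 105, 133 and 86.3 (0.19), Gadd45b had a log2 fold change of 0.07 and Dusp1 of 0.14. Jun stood at 323, 178 and 224 (0.69), Egr1 at 71.4, 0 and 28.8 (1.72 ± 0.79) and Btg2 at 91.8, 22.2 and 40.3 (1.40 ± 0.58), with 7 or fewer UMIs of Egr1 or Btg2 in either negative library. The median over the 16 was 0.16, against 0.00 over all genes tested. Microglia markers summed to 112, 67.4 and 40.3 CPM within this class and oligodendrocyte markers to 749.7, 245 and 339, and their part in the Fos result was not tested.

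**Figure D2:**
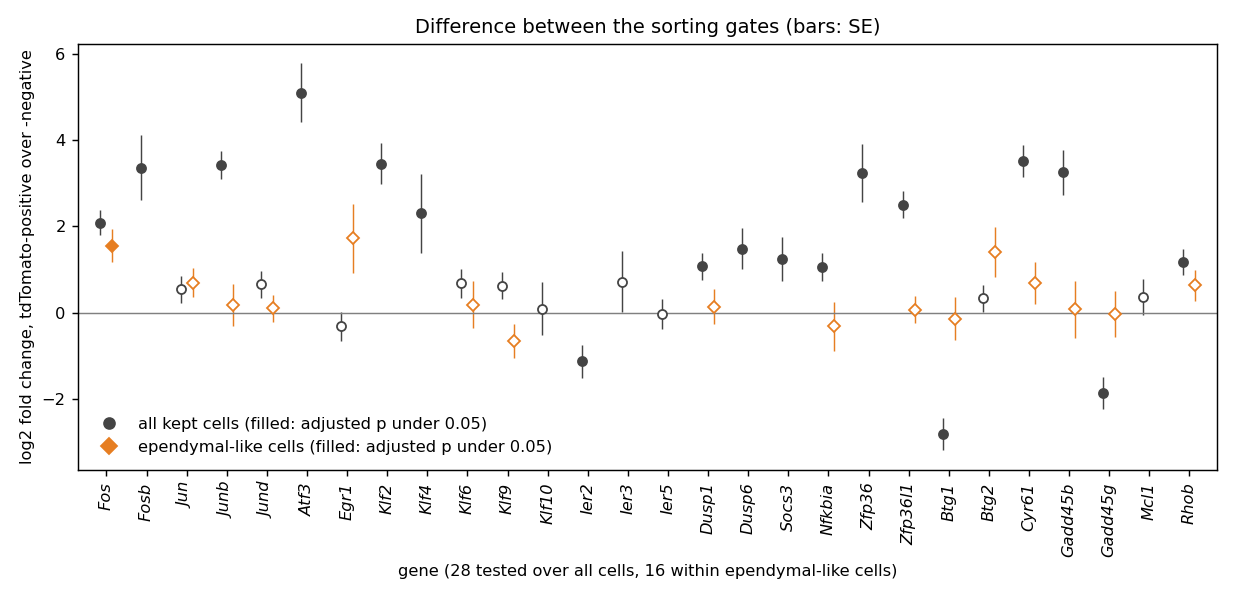
Log2 fold change between the gates on the vertical axis for each tested gene, over all kept cells (circles) and within ependymal-like cells (diamonds), with SE bars and filled symbols where the adjusted p was under 0.05. Fos is filled in both, and Junb, Zfp36l1 and Gadd45b lie near 0 within ependymal-like cells.

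Other early genes lay in a larger share of the tdTomato-positive ependymal-like cells with Fos than of those without. After thinning to 1000 UMIs, Jun was found in 14 of 28 Fos cells (50.0%) and 20 of 132 others (15.2%). Junb was found in 28.6% and 3.79%, and Egr1 and Btg2 each in 7 of the 28 and 3 of the 132 (25% and 2.27%). In the same thinned cells Zfp36l1 was found in 46.4% and 42.4%, and Ier2 in 0 of the 28 and 0 of the 132. Before thinning, 47.8% of 46 Fos cells and 3.82% of 131 others had Junb, and 45.7% and 3.05% had Egr1. The Fos cells were deeper (thinned sets had a median of 4608 against 3444.5 UMIs before thinning) and had a mitochondrial share of 8.41% against 8.88%. All these cells are from 1 library, so the counts are a description. In the astrocyte-like cells of negative replicate 2, 12 cells had Fos after thinning, and 6 of them had Btg2 against 15 of 230 others.

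Within astrocyte-like cells, none of 13 tested genes was higher in the tdTomato-positive library and 2 were lower. The background was 0.73% of 3013 genes higher and 1.92% lower (2.66% in either direction). The class held 17, 49 and 244 cells. Gadd45g gave 0, 48 and 210 UMIs, at least 3.56-fold lower against a floor of 3 counts in the tdTomato-positive library (adjusted p = 0.0006, edgeR). Btg2 gave 0, 24 and 97 UMIs, at least 1.67-fold lower (adjusted p = 0.0497), with 15 of the 24 in 1 cell. DESeq2 gave none of the 13 genes an adjusted p, so it could call neither. Btg2 and Gadd45g were the 2 of the 13 with an unadjusted p under 0.05 in DESeq2. The Btg2 call in edgeR lies at the threshold. Fos gave 1, 7 and 93 UMIs and Jun 1, 17 and 115, and neither was called.

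This class joined a cluster led by Slc7a10 (14, 31 and 168 cells) with one led by Gfap (3, 18 and 76 cells), and the early genes were uneven between them. In negative replicate 2 the Gfap-led cells gave 85 of the 93 Fos UMIs and 82 of the 97 Btg2 UMIs of the class. Their Fos level was 106 and 363 CPM in the negative replicates, against 14.0 and 18.7 in the Slc7a10-led cells. Gadd45g stood at 581 and 665 in Gfap-led cells and at 209.6 and 126 in Slc7a10-led cells of the negative replicates. The 14 tdTomato-positive Slc7a10-led cells gave 0 Gadd45g UMIs, which allows up to 115 CPM (3 counts). At a coarser clustering, 6 and 22 Gfap-led cells of the negative replicates fell into the transit-amplifying-like class. Those had Fos at 149 and 536 and Btg2 at 597 and 600.0 CPM. The part of this makeup in the 2 lower calls was not tested.

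The difference of the gate effects between ependymal-like and astrocyte-like cells was tested directly as a setting added after seeing the data. Of 17 genes tested, Fos, Btg2 and Gadd45g were called higher and none lower, against 0.999% of 4907 genes higher and 0.163% lower (1.16% in either direction). Among the 17, 9 differences were positive and 8 negative, with a median of 0.25 against 0.49 over all genes tested. For Fos the difference was 3.71 ± 0.99 on the log2 scale (adjusted p = 0.0256). For Jun it was 3.22 and did not pass (adjusted p = 0.0800). These rest on 1 Fos UMI and 1 Jun UMI in the 17 tdTomato-positive astrocyte-like cells.

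Oligodendrocyte-like cells could be set side by side in 14 tdTomato-positive cells and 20 cells of negative replicate 2, with no replicate and no test. Jun stood at 260 and 402 CPM within the class, Jund at 482 and 776 and Rhob at 705 and 747. Fos gave 0 and 8 UMIs, the 8 in 1 cell.

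The classes differed among themselves, compared within libraries with the library as a block (3245 genes tested, sums of at least 10 cells). Ependymal-like cells exceeded astrocyte-like cells in 9 of 25 tested genes and were lower in 4, against 17.9% and 10.6% of all genes (28.5% in either direction). Zfp36l1 stood at 651 ± 54 CPM in ependymal-like and 219 ± 78 in astrocyte-like cells (SD over 3 libraries each, log2 fold change 1.71). Jund stood at 348 ± 53 and 89.9 ± 50 (1.88), and Junb at 108 ± 24 and 24.4 ± 32 (2.82). Jun (0.89), Dusp1 (1.83), Cyr61 (1.54) and Rhob (0.98) were higher too. Klf4 gave 8 UMIs against 0, at least 2.72-fold higher, and Zfp36 gave 11 against 1 (log2 ratio 3.49, 95% interval 0.71 to 8.92). The 4 that were lower were Dusp6 (-2.26), Btg1 (-2.14), Btg2 (-1.04) and Gadd45g (-1.67). Fos was not called (0.66, adjusted p = 0.140). The higher calls numbered 4 without the tdTomato-positive library and 5 without either negative one. The lower calls numbered 1 without negative replicate 1 or 2.

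Along the neurogenic lineage the share of genes called lay near the background, so the counts are not read as a trait of the set. Transit-amplifying-like cells, the dividing progenitors, exceeded astrocyte-like cells in 5 of 25 tested genes and were lower in 3. That is 32% in either direction (background 17.9% higher and 20.3% lower, 38.2% in either direction). Egr1 stood at 165 ± 27 (SD, n = 2) and 33.1 ± 11 (SD, n = 3) CPM, a log2 fold change of 2.08 ± 0.37. Jun (1.13), Jund (1.04) and Ier2 (1.23) were higher, and Socs3 gave 11 UMIs against 1 (log2 ratio 3.71, 95% interval 0.92 to 9.14). Klf9, a hormone-responsive factor, was lower (-2.12), as were Zfp36l1 (-1.44) and Cyr61 (at least 6.18-fold). The higher calls numbered 2 without negative replicate 1 and 3 without replicate 2, and the lower calls 5 without the tdTomato-positive library. Neuroblast-like cells, the migrating neuronal precursors, were higher in 3 of 25 tested genes and lower in 8. That is 44% in either direction (background 16% higher and 21.2% lower, 37.1% in either direction). Btg1 stood at 1914 ± 261 (SD, n = 2), against 436 ± 204 (SD, n = 3) in astrocyte-like cells (1.82), and Jun (1.09) and Jund (1.00) were higher. Fos (-2.25), Klf9 (-3.13), Zfp36l1 (-4.48), Btg2 (-1.06) and Gadd45g (-2.11) were lower, with Klf2 at least 3.82-fold and Cyr61 at least 7.63-fold lower. Of the 11 Klf2 UMIs of astrocyte-like cells, 9 lay in 1 cell. Dusp6 gave 3 UMIs against 22 (log2 ratio -2.93, 95% interval -5.32 to -1.20). Without negative replicate 2, 4 were lower. Across the alternatives, Btg2 held its call in 4, lost it in 5 and reversed direction in 3.

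Btg1 was highest in neuroblast-like cells (2098 and 1729.5 CPM in the negative replicates) and in an unnamed cluster led by Prokr2, Pbx3 and Meg3 (3207 and 2521), 2 groups that held 1 cell each in the tdTomato-positive library. Within ependymal-like cells, Btg1 stood at 71.4, 111 and 74.8 and was not called. An unnamed cluster led by Pcna, Rrm2 and Mcm3, genes of DNA replication, had the highest Egr1 of the classes in both negative libraries (241 and 261). It also had Gadd45g at 330.0 and 568.

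Oligodendrocyte-like cells exceeded astrocyte-like cells in 4 genes and were lower in 6 (background 8.1% and 9.71%, 17.8% in either direction). Rhob stood at 726 ± 30 (SD, n = 2), against 118 ± 31 (SD, n = 3), a log2 fold change of 2.55, and Jund (2.47) and Jun (1.05) were higher. Klf4 gave 4 UMIs against 0, at least 8.35-fold higher, but all 4 lay in 1 cell of negative replicate 2. Btg1 (-2.89) was lower, with Gadd45g at least 13.7-fold, Ier5 at least 2.71-fold and Egr1 at least 1.81-fold lower. Zfp36l1 gave 2 UMIs against 159 (log2 ratio -3.67, 95% interval -6.72 to -1.79) and Btg2 1 against 121 (-4.27, -9.59 to -1.77). Several of these comparisons share the astrocyte-like sums, whose Gfap-led cells are described above. At Leiden resolution 2.0, a finer clustering, Btg2 was at 0.23 between ependymal-like and astrocyte-like cells and at 0.86 between neuroblast-like and astrocyte-like cells, the opposite direction in both. Without negative replicate 2 the lower calls of oligodendrocyte-like cells fell to 2, and without either negative replicate the higher calls fell to 2.

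**Figure D3:**
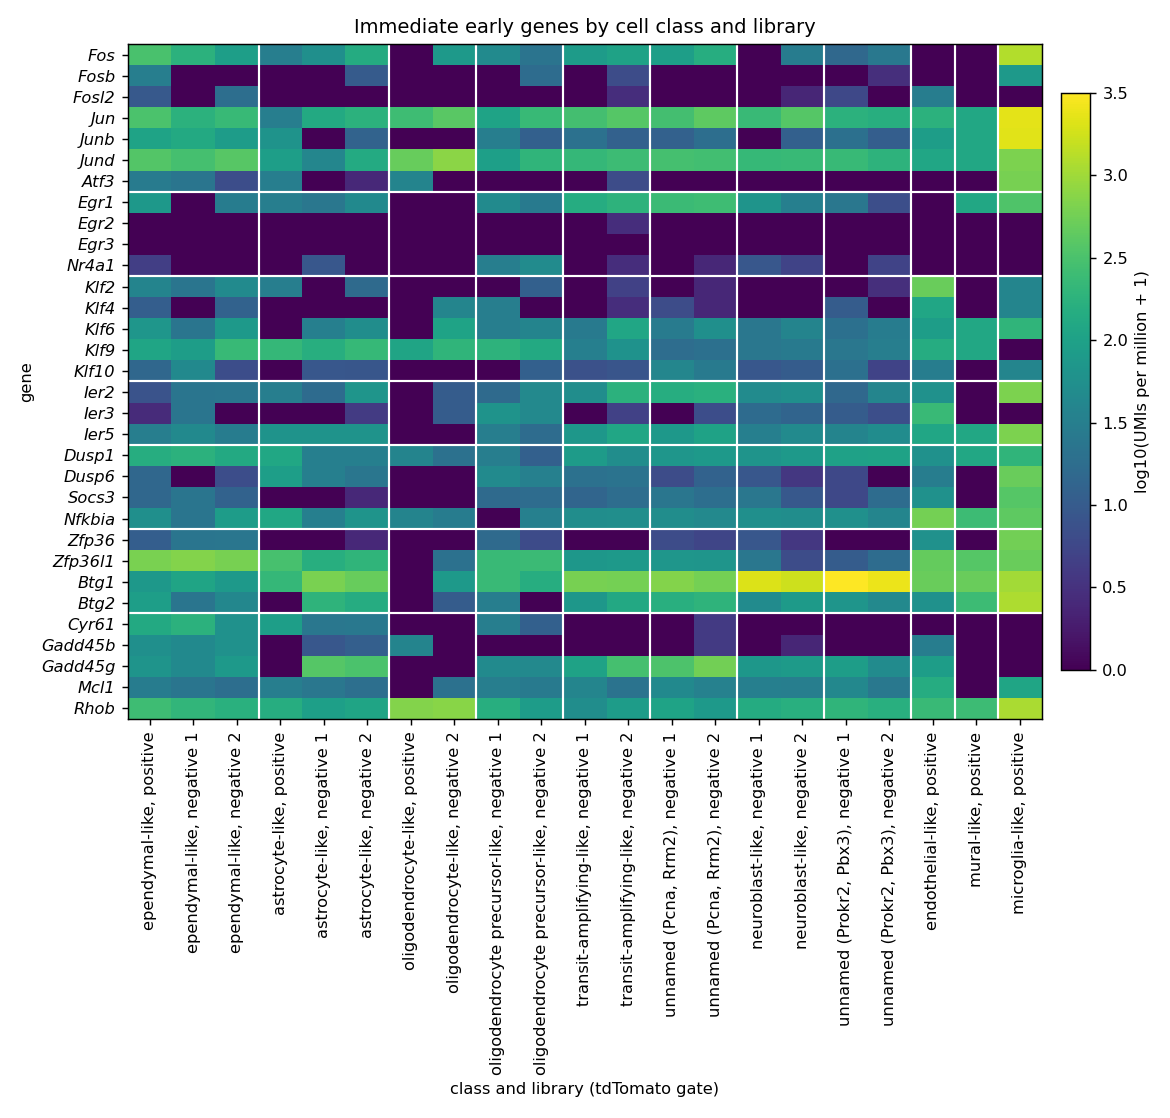
Heat map of log10 of CPM plus 1 for the 32 genes (rows, in role groups) in each class and library (columns) with at least 10 cells, or 8 for mural-like cells. The microglia-like column is bright for Jun, Junb, Fos, Atf3 and Btg2, Btg1 is brightest in neuroblast-like and the Prokr2-led cells, and Zfp36l1 in ependymal-like cells.

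The 14 microglia-like cells had the highest level of the set. The 32 genes together made up 1.56% of their non-mitochondrial UMIs, with Jun at 2257, Junb at 2181, Fos at 1262, Btg2 at 1186 and Atf3 at 612 CPM. That level came mostly from 2 cells, which had 4.08% and 4.90% of their non-mitochondrial UMIs in the 32 genes. They held 290 of the 393 such UMIs of the class (73.8%) and 25.5% of all its UMIs. In them lay 32 of 33 Fos, 17 of 17 Ier2, 51 of 57 Junb, 15 of 16 Atf3, 9 of 10 Socs3 and 12 of 15 Zfp36 UMIs. The other 12 cells had from 0% to 0.847% in the 32 genes and 0.547% when pooled. In contrast, 11 of 13 Dusp6 UMIs and 5 of 5 Klf6 UMIs lay in those 12 cells. The class exists in 1 library, so no test between groups was possible.

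**Figure D4:**
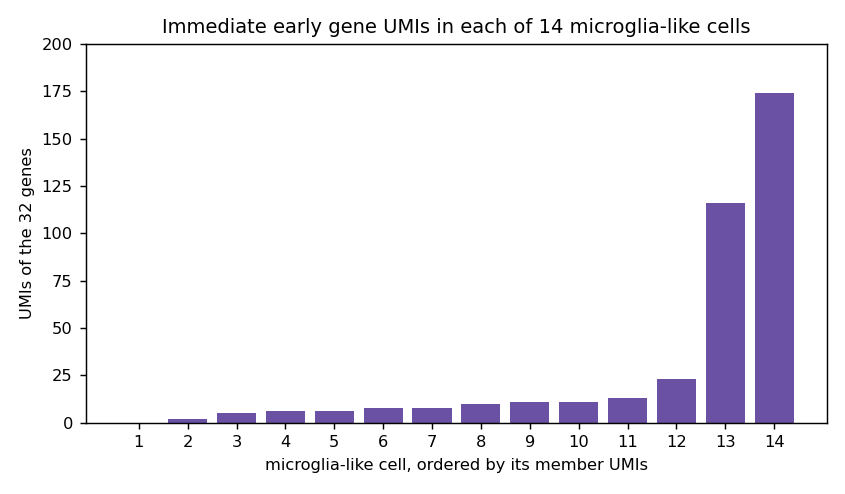
Summed UMIs of the 32 genes (vertical axis) in each of the 14 microglia-like cells, ordered by that sum (horizontal axis). The 2 highest cells have 116 and 174 UMIs and the other 12 have 0 to 23.

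Endothelial-like cells had another profile. Nfkbia stood at 583 CPM (20 UMIs in 20 cells), Klf2 and Btg1 at 495 (17 UMIs each) and Zfp36l1 at 466 (16 UMIs). Ier3 and Rhob stood at 233 (8 UMIs each), Jun at 175 (6 UMIs) and Klf9 and Mcl1 at 146 (5 UMIs each). Klf4, Ier5 and Jund stood at 117 (4 UMIs each), and the Klf4 UMIs lay in 3 cells. Fos and Atf3 each gave 0 UMIs there, which allows up to 87.4 CPM (3 counts). Klf2 and Klf4 are known flow-responsive factors of endothelium.

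Per cell, the 32 genes made up a median of 0.254% of non-mitochondrial UMIs among tdTomato-positive cells, with 0.302% and 0.278% in negative replicates 1 and 2, lowest in the tdTomato-positive library. In the Prokr2-led cluster, with 1 tdTomato-positive cell, the medians of the negative replicates were 0.468% and 0.346%. Btg1 stood at 3207 and 2521 CPM there. The part of Btg1 and of makeup in the library medians was not tested. In ependymal-like cells the medians were 0.251%, 0.269% and 0.222%. Pooled over all kept cells of a library, the share was 0.381%, 0.301% and 0.297%. Pooled over its ependymal-like cells, it was 0.342%, 0.285% and 0.284%.

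The mitochondrial share is often used as a sign of damaged cells, and the tdTomato-positive library had the highest. Cells were therefore split at the median mitochondrial share of their own library and class, and the upper and lower cells were compared with the library as a block. None of 17 tested genes was called in edgeR or in DESeq2 (2 had an unadjusted p under 0.05 in each). In edgeR 0.171% of 6448 genes were called higher and 0.186% lower (0.357% in either direction). DESeq2 called 0 genes in all. The lowest adjusted p-values in edgeR were those of Btg2 (log2 fold change 0.50 ± 0.16, adjusted p = 0.266) and Egr1 (0.55 ± 0.18, adjusted p = 0.323). Fos and Jun had log2 fold changes of -0.21 each. The upper cells of the tdTomato-positive library had a median share of 11.4% at 1925.5 UMIs and the lower ones 7.14% at 3278.5 UMIs, so depth moved with the split. These cells come from the same libraries, and the comparison says nothing of cells removed by the filters.

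Within the 177 tdTomato-positive ependymal-like cells, ordered by mitochondrial share and divided into 4 groups of 44 or 45, the 32 genes gave 3357, 3714, 3454 and 2705 CPM of non-mitochondrial UMIs from the lowest share to the highest. Fos gave 357, 305, 457 and 148, and Jun gave 363, 391, 377 and 197. The group with the highest share (12.1% to 24.8%) was lowest in both, and it was the shallowest, with a median of 1557 UMIs per cell against 3685 to 4410 in the others. Zfp36l1 gave 662, 843, 602 and 623. Across these cells the rank correlation of the gene share with the mitochondrial share was -0.22 (n = 177 cells of 1 library, as a description).

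**Figure D5:**
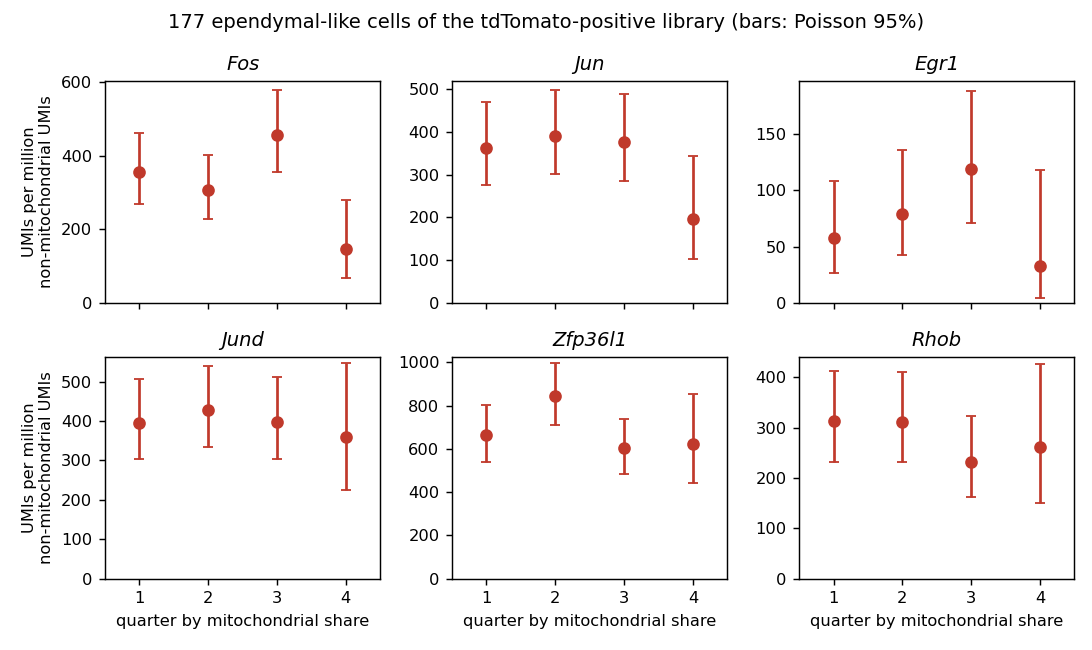
CPM of non-mitochondrial UMIs (vertical axes) of Fos, Jun, Egr1, Jund, Zfp36l1 and Rhob in 177 tdTomato-positive ependymal-like cells in 4 groups by rising mitochondrial share (horizontal axes), with exact Poisson 95% intervals that cover counting error only. Fos is lowest in the group with the highest share (148, interval 67.5 to 280.1).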

How the data were processed

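Each library was deposited by the authors as a matrix of raw UMI counts per gene and barcode, whole numbers with no normalization. The submitters' processing notes name Seurat 1.4.0.15, STAR and Cell Ranger and the builds GRCm38.p5 and mm10, with no role or order; settings and the cell-calling rule: not given in the sources used here. The members and gene lists were chosen with earlier results of these data known.

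Kept barcodes had 300 or more genes and a mitochondrial share up to 25% (252 of 314, 256 of 259 and 1121 of 1127). Doublets were not removed beyond the submitters' sort gate. Cells were scaled to 10000 UMIs, log-transformed with a pseudocount of 1 and clustered with scanpy 1.11.5 (Leiden resolution 1.0, 1000 variable genes, 20 components, 15 neighbours, no integration), from genes with an even last Ensembl digit plus markers, without the 32 genes, the pathway lists or mitochondrial genes. Clusters were called "-like" from fixed markers. Comparisons of classes tested genes with an odd last digit and the lists, none of which entered the clustering.

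Sums over the cells of a library, or of a class with at least 10 cells in it, were tested with edgeR 4.0.16 in R 4.3.3 (quasi-likelihood, TMM, filterByExpr, Benjamini-Hochberg over all genes tested, threshold 0.05), and with DESeq2 1.42.0 as an alternative. Gate comparisons have 1 residual degree of freedom. Class comparisons used library as a block, since classes of a library come from 1 suspension. Alternatives were other scaling, no count filter, stricter cells (500 genes, 10%), other clusterings, thinning to 1000 UMIs, mitochondrial genes left out, selected cells and leaving out each library. The fits were tested on simulated data. Where a group had 0 UMIs, folds are bounds that take 3 counts for the whole group as its floor; with 1 to 3, exact 95% intervals are given. Intervals cover counting error only.

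Named with values in every library were genes called between gates over all cells or in a class, plus Fos, Jun, Egr1, Atf3 and Jund; of the pathway lists, up to 8 called genes with the largest fold change.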

Additional observations from a re-analysis of the deposited data

Results flagged for a closer look

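Fos, Btg2 and Gadd45g differed in their gate effect between ependymal-like and astrocyte-like cells by the interaction test in edgeR, at adjusted p = 0.0256 (Fos), 0.00941 (Btg2) and 0.0104 (Gadd45g). That test was added after seeing the data and uses the same sums as the gate comparisons within each class, so it is no separate support for them. In ependymal-like cells Fos gave 184, 8 and 16 UMIs in the tdTomato-positive library and negative replicates 1 and 2, Btg2 54, 1 and 7, and Gadd45g 37, 2 and 13. In astrocyte-like cells the counts were 1, 7 and 93 for Fos, 0, 24 and 97 for Btg2, and 0, 48 and 210 for Gadd45g. For Btg2 and Gadd45g the difference rests on 0 UMIs in the 17 tdTomato-positive astrocyte-like cells. Of those 17, 3 were in the Gfap-led cluster, which held 18 and 76 cells of negative replicates 1 and 2. The part of this makeup was not tested.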

How the results depend on the processing

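Of the values of single genes under alternatives, 782 counted as the same, 114 kept the direction and lost the call, 13 gained a call, 11 values with no test moved and 10 reversed. Same meant an unchanged side of the threshold or, for values with no test, a shift smaller than the SE. A change of sign with no call in either fit also counted as the same, so the 10 are reversals that involved a call. The cause was not tested.

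Over all cells, the 15 higher calls became 9 with DESeq2, which called 1908 genes in all against 4577 with edgeR. Under alternatives other than DESeq2, the number of all genes called was not computed. Within ependymal-like cells the 1 higher call became 0 with DESeq2, with no count filter and with clustering on odd-digit genes. DESeq2 called 0 genes in all there, against 12 with edgeR. Within astrocyte-like cells the 2 lower calls became 1 with DESeq2's size factors, with no count filter, with odd-digit clustering or with mitochondrial genes left out. They became 0 at Leiden resolutions 0.5 and 2.0. The DESeq2 test could make no call there, since none of the 13 genes had an adjusted p.

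For ependymal-like against astrocyte-like cells, the 9 higher calls became 4 with DESeq2 and 4 to 5 when 1 library was left out, and the 4 lower calls became 2 with no count filter or stricter cells and 1 to 3 when 1 library was left out. Transit-amplifying-like cells had 5 higher calls, which became 3 with DESeq2, 8 with stricter cells, 9 at resolution 0.5, 8 at resolution 2.0 and 2 to 4 with 1 library left out; their 3 lower calls became 3 to 5. Neuroblast-like cells had 3 higher calls, which became 6 with stricter cells, 5 with odd-digit clustering, 7 at resolution 0.5, 8 at resolution 2.0 and 2 to 4 with 1 library left out; their 8 lower calls became 4 to 6. Oligodendrocyte-like cells had 4 higher calls, which became 2 with no count filter and 2 to 3 with 1 library left out, and 6 lower calls, which became 3 with stricter cells and 2 to 6. In each of these class comparisons DESeq2 also called fewer genes in all than edgeR. Its lower counts are therefore not read as a loss particular to the immediate early genes. For the mitochondrial share, 0 higher calls became 0 to 1, the 1 without negative replicate 2.

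Reversed were Btg2 between ependymal-like and astrocyte-like cells (0.23 at resolution 2.0); Fos between transit-amplifying-like and astrocyte-like cells (-0.19 became 0.88 with stricter cells, 1.48 at resolution 0.5 and 1.19 at 2.0); and, between neuroblast-like and astrocyte-like cells, Egr1 (-0.07 became 1.71, 1.55 and 1.58 in that order) and Btg2 (0.34, 0.55 and 0.86). At resolution 0.5, 6 and 22 Gfap-led cells of negative replicates 1 and 2 fell into the transit-amplifying-like class; their part was not tested.

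Without the library as a replicate block, ependymal-like against astrocyte-like cells gave 12 higher and 4 lower calls, and no count of another comparison changed. No paired analysis was possible because the gates hold 1 and 2 libraries whose numbers follow accession order. Not run were the oligodendrocyte-like gate comparison under alternatives (1 library against 1), the astrocyte-like gate comparison with stricter cells (under 10 tdTomato-positive cells) and counts of gate calls with a library left out (no test). Small sums limit the depth of several comparisons: in the tdTomato-positive gate, 14 oligodendrocyte-like cells (26955 UMIs) and 17 astrocyte-like cells (32702 UMIs), and 12 ependymal-like cells of negative replicate 1 (44953 UMIs).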

Other observations

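Further lists of the same response were read over all cells. Of 45 other immediate early and early stress genes, 19 were tested, 9 were higher in the tdTomato-positive library and 3 lower (median log2 fold change 1.27, against -0.07 over all genes tested). Of 31 transcription factors and kinases upstream, 28 were tested, 9 were higher and 4 lower (median 0.31). The background in that fit was 22.9% of genes higher and 19% lower.

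The chemokines Ccl4 and Ccl3 came from microglia-like cells: Ccl4 gave 37 UMIs against 0, at least 77.3-fold higher, with 97.3% of the 37 in those 14 cells, and Ccl3 gave 27 against 1 (log2 ratio 7.40, 95% interval 4.80 to 12.76), with 100% in them. Batf3, an AP-1 partner, rose by 3.53 ± 0.96 and Per1, a clock gene, by 2.92 ± 0.81, with 78.6% and 100% of their tdTomato-positive UMIs in ependymal-like cells. Wwtr1, the YAP paralog TAZ, rose by 2.86 ± 0.40 with 94.2% in ependymal-like cells, and Cebpb by 2.80 ± 0.40 with 80.4% there and 17.6% in microglia-like cells. Lower were Dusp4, a nuclear phosphatase (0 UMIs against 56, at least 2.98-fold), and Arl4d, a small GTPase (3 against 229, log2 ratio -3.61, 95% interval -5.90 to -2.04). Within ependymal-like cells, 5 genes of the first list and 7 of the second were tested. There edgeR called none of them, and 0 had an unadjusted p under 0.05. In that fit 0.293% of 4098 genes were called in either direction, so these counts are not read as a result about the lists.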
